A study of Homo sapiens with 14 samples.

Results

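ACSL5, SPIN4 and LETM2 are 3 genes whose values rose with labelled passage in a long culture of immortalized human lung fibroblasts. They were chosen by the slope of their log2 values over the 10 arrays titled A, and each is represented by 1 of the 28869 rows of the deposited table, or 3 of the 18377 genes named by a row with 1 symbol. The cells were WI-38, a diploid fibroblast strain from human lung, before and after they were immortalized with hTERT, which encodes the enzyme subunit of telomerase. RNA taken in biological duplicate was hybridised to 14 Affymetrix arrays that read whole transcripts, 1 array per sample. The 7 groups of 2 arrays were hTERT-immortalized cells titled A at passages 39, 50, 58, 67 and 95, hTERT-immortalized cells titled B at passage 96, and primary cells without that label at passage 19. They are written below as A39, A50, A58, A67, A95, B96 and primary. Each week all cultures were reseeded at the same cell number in the same medium. The labels do not explain the letters A and B or say whether either is a clone. They also do not say whether duplicates came from separate plates, so p-values measure the spread between these samples, which may be technical.

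The 3 genes act in different parts of the cell. ACSL5 encodes a long-chain acyl-CoA synthetase, which activates free fatty acids by joining them to coenzyme A at mitochondrial and endoplasmic reticulum membranes, so that they can be built into glycerolipids or oxidised, and it is best known from intestine and liver. SPIN4 encodes a member of the spindlin family, nuclear proteins with Tudor-like repeats that read methylated lysine 4 of histone H3. LETM2 encodes a relative of LETM1, a protein of the inner mitochondrial membrane that takes part in cation exchange and mitochondrial volume control, and LETM2 itself is less studied.

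The stretches directly upstream of the RefSeq starts of ACSL5 and SPIN4, both chosen for a rising slope, are shown as a description. They differ in CpG content, the substrate of the DNA methylation that the study's title names. A link between these stretches and the rise was not tested. RefSeq gives 2 windows for ACSL5 and 1 for SPIN4 in build GRCh38.p14, each printed 5′ to 3′ on the gene's strand for the 250 bases before the start, with CG dinucleotides in capitals. The windows lie at chr10:112375018-112375267 (plus strand), chr10:112375955-112376204 (plus strand) and chrX:63351333-63351582 (minus strand).
ACSL5 start 1: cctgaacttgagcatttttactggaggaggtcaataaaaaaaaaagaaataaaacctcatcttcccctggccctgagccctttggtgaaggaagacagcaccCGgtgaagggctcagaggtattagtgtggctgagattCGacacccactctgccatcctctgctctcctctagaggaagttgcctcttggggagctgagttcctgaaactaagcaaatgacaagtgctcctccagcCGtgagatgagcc
ACSL5 start 2: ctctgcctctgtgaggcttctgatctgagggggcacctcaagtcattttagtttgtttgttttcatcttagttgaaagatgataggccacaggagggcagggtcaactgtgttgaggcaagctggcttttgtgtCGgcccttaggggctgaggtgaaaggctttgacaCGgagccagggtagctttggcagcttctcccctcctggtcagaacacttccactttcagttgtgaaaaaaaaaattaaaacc
SPIN4 start 1: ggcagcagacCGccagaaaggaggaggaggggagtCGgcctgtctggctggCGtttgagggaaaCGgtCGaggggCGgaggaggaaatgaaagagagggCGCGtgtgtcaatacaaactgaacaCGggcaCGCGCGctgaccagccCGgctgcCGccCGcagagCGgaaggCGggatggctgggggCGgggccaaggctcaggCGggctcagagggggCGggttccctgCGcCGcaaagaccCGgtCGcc

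The ACSL5 windows hold 3 and 2 CG dinucleotides, and 77.1% and 85.3% of the 35116 RefSeq windows of this length hold at least as many. The SPIN4 window holds 24, a count reached by 23.7% of windows, against a median of 11 over all of them. The motif GGGCGG, whose letters overlap with CG, was searched on both strands and occurs 4 times in the SPIN4 window and 0 times in either ACSL5 window, while 42.6% of all windows hold it. TATAAA, also searched on both strands, occurs 0 times in each of the 3 windows and is held by 10.7% of all windows. The 2 genes thus share neither a CpG-rich window nor either motif in the stretches shown. These letters are a description, no methylation value was analysed here, and the single ACSL5 row does not separate its starts.

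The arrays did not pair by their labels, and every group value below carries this limit. For 0 of the 14 arrays was the most similar array, by Pearson correlation across rows, the one that shares its label, and for 12 it was an array of the next or preceding label. Mutually closest were primary replicate 2 and A39 replicate 1 (0.993), A39 replicate 2 and A50 replicate 1 (0.992), A50 replicate 2 and A58 replicate 1 (0.991), A58 replicate 2 and A67 replicate 1 (0.99), and A95 replicate 2 and B96 replicate 1 (0.986). Each of these pairs joins a replicate 2 to replicate 1 of the next label, as would be seen if labels were shifted by 1 array. Whether they are was not tested, so group means, SDs, slopes and differences within labels are those of the labels as deposited. A67 replicate 2 was closest to A95 replicate 1 (0.988), B96 replicate 2 to A39 replicate 1 (0.979) and primary replicate 1 to A58 replicate 2 (0.98). TERT, which checks the hTERT label, read 11.70 in primary replicate 2, inside the range of the 12 hTERT arrays, against 7.07 in primary replicate 1. Fibroblast markers had list means of 11.11 to 11.90 over 14 of 14 measured genes, and 12 of the 14 stayed at 9 or above on every array. COL5A1 went down to 8.60. S100A4, a calcium-binding protein, went down to 6.26 in B96 replicate 1 and 6.89 in A95 replicate 2, against a median of 10.39. ACSL5 was highest on these arrays, but S100A4 did not follow it throughout. S100A4 read 8.03 in A39 replicate 2 and 8.39 in A50 replicate 1, where ACSL5 was 6.35 and 6.42. It read 10.97 in A67 replicate 2 and 10.90 in A95 replicate 1, where ACSL5 was 8.62 and 8.46. The part of COL5A1 and S100A4 in the results was not tested. Lists for the tissues in which ACSL5 is abundant stayed lower, at 6.69 to 6.98 for 12 of 13 epithelial and intestinal genes and 6.30 to 6.67 for 7 of 7 hepatocyte genes, and 6 of 6 adipocyte genes averaged 6.79 to 7.39. Endothelial and blood lists averaged 6.98 to 7.43 over 6 of 6 genes and 6.77 to 7.29 over 6 of 8. In each, 5 of the 6 measured genes had a median under 9. The exceptions were TEK of the endothelial list, with a median of 9.79, and CD68 of the blood list, with 10.36. In all these lists 0 genes were listed at 0.

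ACSL5 had the widest course of the 3 genes. All values are log2 values as deposited, from whole cultures, in which more cells of one kind and more RNA per cell cannot be told apart. The gene read 5.66 and 5.85 in primary cells, 5.60 and 6.35 in A39, 6.42 and 6.69 in A50, 6.68 and 7.32 in A58, and 7.20 and 8.62 in A67. It then read 8.46 and 9.59 in A95, against 9.52 and 5.85 in B96, with replicate 1 first in each pair. The primary arrays and A39 replicate 1 were low, A67 replicate 2, both A95 arrays and B96 replicate 1 were high, and B96 replicate 2 stood with the primary arrays. Group means ran from 5.76 ± 0.13 (SD, n = 2) in primary cells through 6.56 ± 0.19 in A50 to 9.03 ± 0.80 in A95, and B96 averaged 7.69 ± 2.60. A95 was 3.05 log2 above A39, an 8.28-fold difference in array signal. The low values of ACSL5 lay below the means of the epithelial and hepatocyte lists, and no detection calls were analysed, so its folds are against a signal not shown to be above background. From the lowest array to the highest, ACSL5 spanned 3.99 log2. As wide a span was found in 195 of 28869 rows, or 0.675%, against a median range of 0.85 over all rows. A choice by rising slope favours a wide range, so this share is a description and not independent of the choice.

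SPIN4 stayed level at first and then climbed. It read 8.60 and 8.40 in primary cells, 8.48 and 8.33 in A39, 8.29 and 8.82 in A50, 8.71 and 9.21 in A58, and 9.43 and 9.81 in A67. Its A95 values were 9.71 and 10.32, and its B96 values 10.41 and 8.70. The A39 and primary arrays and A50 replicate 1 lay between 8.29 and 8.60, without separation of A39 from primary cells, and both A67 arrays were above every earlier one. A95 averaged 10.02 ± 0.43 and A39 8.41 ± 0.11 (SD, n = 2 each), a difference of 1.61 log2 or 3.05-fold. The highest of the 14 values was B96 replicate 1, while B96 replicate 2 lay between both A50 arrays. A range as wide as the 2.12 log2 of SPIN4 was found in 5.57% of rows, a share that is not independent of the choice by slope.

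LETM2, chosen by rising slope like SPIN4, followed it closely, a likeness that is not independent of that choice. It read 8.04 and 7.84 in primary cells, 7.85 and 7.72 in A39, 7.91 and 8.09 in A50, 8.18 and 8.68 in A58, and 8.72 and 8.82 in A67. Its A95 values were 9.02 and 9.66, and its B96 values 9.48 and 7.96. The A39, A50 and primary arrays stayed between 7.72 and 8.09, every array of A58, A67 and A95 was above them, and B96 replicate 2 lay inside their range. A95 averaged 9.34 ± 0.45 and A39 7.79 ± 0.09 (SD, n = 2 each), a difference of 1.56 log2 or 2.94-fold. Its range of 1.94 log2 was matched by 7.22% of rows, a share that is not independent of the choice by slope either.

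**Figure D1:**
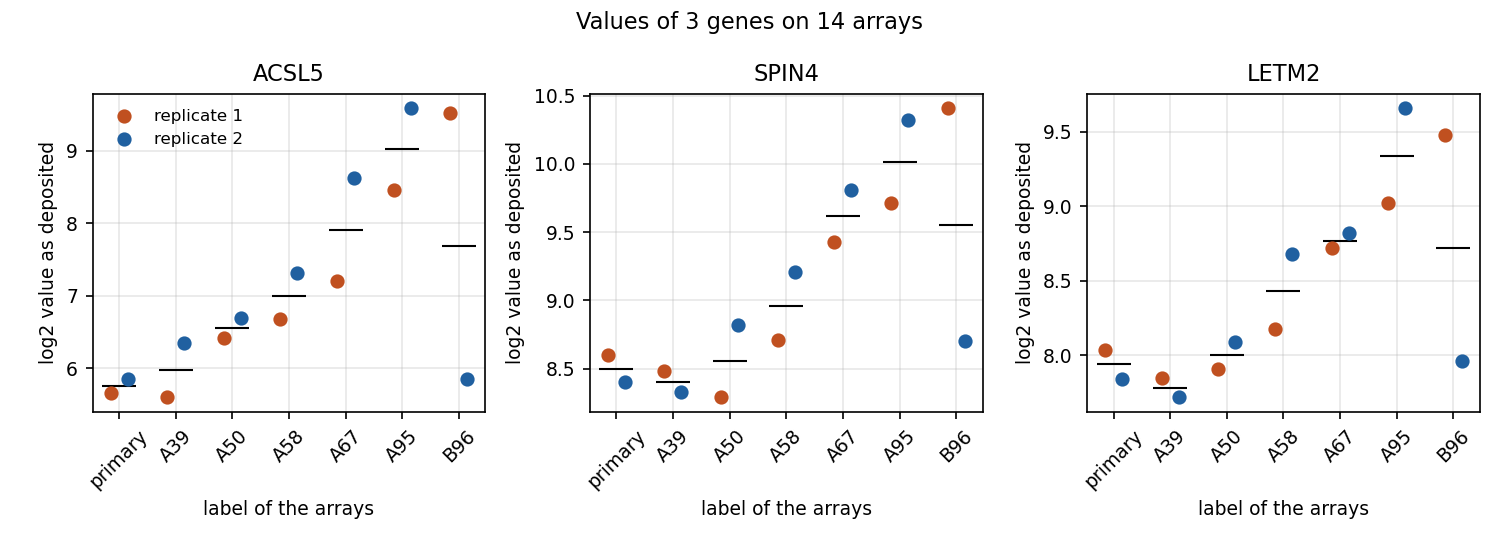
Log2 values as deposited (vertical axis) of ACSL5, SPIN4 and LETM2 by array label (horizontal axis), with 1 point per array, replicate 1 in orange and replicate 2 in blue, and a black bar for the mean of 2 arrays. The genes climb along the labels titled A, and at B96 the points part, at 9.52 and 5.85 for ACSL5, 10.41 and 8.70 for SPIN4, and 9.48 and 7.96 for LETM2.

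The slopes that chose the genes are given as a description. Per 10 passages they were 0.56 ± 0.080 log2 for ACSL5, 0.31 ± 0.050 for SPIN4 and 0.29 ± 0.039 for LETM2 (SE from limma, 10 arrays titled A), or 1.47-fold, 1.24-fold and 1.22-fold. In that fit 12 of 28869 rows were called rising at an adjusted p under 0.05 (0.0416%) and 69 falling (0.239%). The 3 genes, chosen by this slope, had the largest slopes among the 6 rising rows with 1 symbol. A rising row without 1 symbol had 0.38, above SPIN4 and LETM2. The count of rising rows was 178 without A95 replicate 1, 18 without A67 replicate 2 and 0 or 1 without any other single array. Just inside the threshold were BRI3BP at 0.26 ± 0.045, PANK2, a pantothenate kinase of coenzyme A synthesis, at 0.19 ± 0.031, and GPAM at 0.21 ± 0.036. Just outside were ANKRD18B at 0.25 ± 0.044 and STMN1, which encodes the microtubule regulator stathmin, at 0.12 ± 0.021. The replicate 1 arrays alone gave slopes of 0.50, 0.26 and 0.23 for ACSL5, SPIN4 and LETM2, and the replicate 2 arrays alone gave 0.62, 0.36 and 0.34. Both series climbed at 4 of 4 steps for ACSL5 and LETM2, while SPIN4 climbed at 3 of 4 in replicate 1 and 4 of 4 in replicate 2. Both are parts of the 10 arrays that chose the genes, so they are no replication of the rise.

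The label of a steady rise holds for the means of the labels as deposited, and differences within labels were similar in size to the steps. The mean of ACSL5 was higher at 4 of 4 steps to the next label titled A, by 0.445 to 1.12 log2. Within labels, replicate 2 of ACSL5 exceeded replicate 1 in 5 of 5 cases, by 0.27 to 1.42 log2, a pattern found in 1.87% of all rows. ACSL5 was chosen for its rise over these same arrays, so this pattern is not independent of the choice. The widest pair was A67, where replicate 2 was 2.68-fold above replicate 1. Arrays that share a label thus lay 0.84 log2 apart on average, against a mean step of 0.76 between labels. Mutually closest arrays of neighbouring labels lay nearer. They read 6.35 and 6.42 (A39 replicate 2, A50 replicate 1), 6.69 and 6.68 (A50 replicate 2, A58 replicate 1), and 7.32 and 7.20 (A58 replicate 2, A67 replicate 1). The gaps within labels are therefore not shown to be replicate spread, and a shift of labels was not tested.

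SPIN4 also stepped up at 4 of 4 label means, by 0.15 to 0.66, with differences of -0.15 to 0.61 between replicate 2 and replicate 1. Their mean size was 0.43, against a mean step of 0.40. LETM2 stepped up at 4 of 4 label means as well, by 0.215 to 0.57, with differences of -0.13 to 0.64 within labels. Its arrays of 1 label lay 0.31 apart on average, against a mean step of 0.39.

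**Figure D2:**
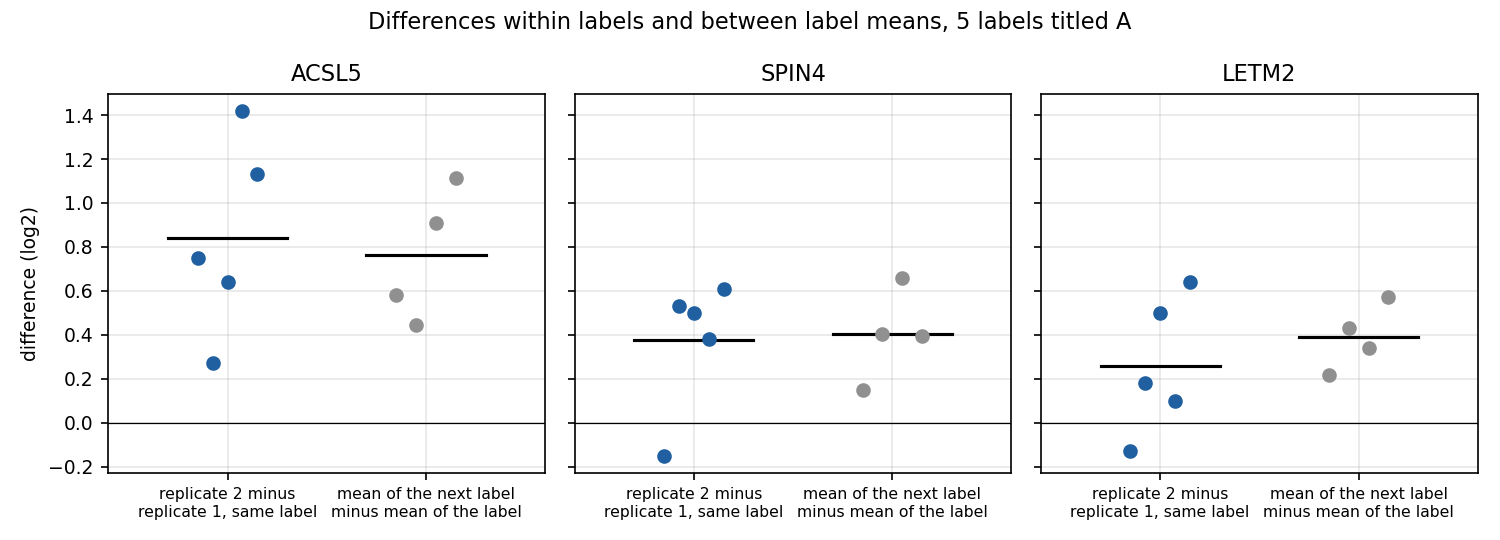
Differences in log2 (vertical axis) for ACSL5, SPIN4 and LETM2 between the arrays that share a label (blue, replicate 2 minus replicate 1, 5 labels titled A) and between the means of neighbouring labels (grey, next label minus label, 4 steps), with black bars for their means. ACSL5 differs by 0.27 to 1.42 within labels and by 0.445 to 1.12 between label means.

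In order of group means, ACSL5 ran through primary, A39, A50, A58, B96, A67 and A95. SPIN4 and LETM2 shared the order A39, primary, A50, A58, B96, A67 and A95. The pooled SD within labels was 1.13 for ACSL5, 0.54 for SPIN4 and 0.47 for LETM2, B96 included. B96, with SDs of 2.60, 1.21 and 1.08, had the largest SD for each gene and widens the pooled SD. Neighbours in these orders lay closer than that pooled SD for ACSL5, the widest gap being 1.12 between A95 and A67. That result depends on B96, as the next largest SD of ACSL5 was 1.00 in A67. For SPIN4 the exception was B96 over A58 (0.60), and for LETM2 A95 over A67 (0.57).

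B96 and primary are the 4 arrays that the choice of the genes did not use. They are not independent of the choice, because each of the 4 is closest to an array titled A. Their contrast therefore cannot decide whether the rise recurs in the cells titled B, and a shift of labels was not tested. The result depended on the array. B96 replicate 1 was 3.77 log2 above the primary mean for ACSL5, 1.91 for SPIN4 and 1.54 for LETM2. B96 replicate 2 was 0.095, 0.20 and 0.020 above it. The primary arrays themselves differed by 0.19 for ACSL5 and by 0.20 for each of the other two, and primary replicate 2 is the array with the high TERT value, so their spread may not be that of primary cells.

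The group difference, B96 minus primary, was 1.93 ± 0.93 log2 (SE) for ACSL5, 1.06 ± 0.46 for SPIN4 and 0.78 ± 0.41 for LETM2, each with a limma adjusted p of 0.695 over all rows. None of the 3 passed. Both B96 arrays lay above both primary arrays for SPIN4 alone of the 3 genes, as for 24.7% of all rows. Limma called 0 rows higher and 0 lower (0%) in this contrast, with 1981 of 28869 at an unadjusted p under 0.05, and the median difference of all rows was 0.085. With 1 B96 array left, the error comes from the spread of the other groups, and the lone array is assumed to vary like them. Without B96 replicate 2 the differences were 3.77 ± 0.61, 1.91 ± 0.34 and 1.54 ± 0.29, with adjusted p of 0.146, 0.152 and 0.160, and limma called 6 rows higher, none of the 3 among them. Without B96 replicate 1 they were 0.095, 0.20 and 0.020, with adjusted p of 0.991, 0.946 and 0.996. Over all 22 alternatives the adjusted p ran from 0.146 to 0.996 and the differences stayed above 0.

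Whether B96 replicate 2 keeps the early level can be read from the 4 arrays of A39 and A50. They ran from 5.60 to 6.69 for ACSL5, from 8.29 to 8.82 for SPIN4 and from 7.72 to 8.09 for LETM2. B96 replicate 2, at 5.85, 8.70 and 7.96, lay inside in all 3 cases, as 51.1% of all rows did. B96 replicate 1 lay inside the range of both A95 arrays for ACSL5 (8.46 to 9.59) and LETM2 (9.02 to 9.66) and above it for SPIN4 (9.71 to 10.32), and 49.2% of all rows lay inside. The 2 B96 arrays, both labelled passage 96, were 3.67 log2 or 12.7-fold apart for ACSL5, 1.71 or 3.27-fold for SPIN4 and 1.52 or 2.87-fold for LETM2. Replicate 1 was at least 1 log2 above replicate 2 in 4.4% of all rows and in 3 of these 3. The closest arrays to B96 replicates 1 and 2 are A95 replicate 2 and A39 replicate 1. The choice used both, so the gap is not independent of it.

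The other rows called rising were placed on the same scale, where 0 is the mean of A39 and 1 the mean of A95. B96 replicate 1 stood at 1.16 for ACSL5, 1.25 for SPIN4 and 1.09 for LETM2, and B96 replicate 2 at -0.041, 0.18 and 0.11. Replicate 1 was nearer to A95 in 11 of the 12 rows and replicate 2 nearer to A39 in 10 of the 12, against 68% and 60.3% of all rows. Of the 12 rows, 3 without a symbol are near copies of one another over the 14 arrays (r of at least 0.9997), and counted once they leave 9 and 8 of 10 rows. PANK2 parted most like ACSL5, with positions of 1.20 and -0.15. B96 replicate 1 is the closest partner of A95 replicate 2, an array the choice used, so its high position is not independent of the choice. The closest partner of both B96 replicate 2 and primary replicate 2 is A39 replicate 1, which the choice used as well, so their low positions are not independent of it either.

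**Figure D3:**
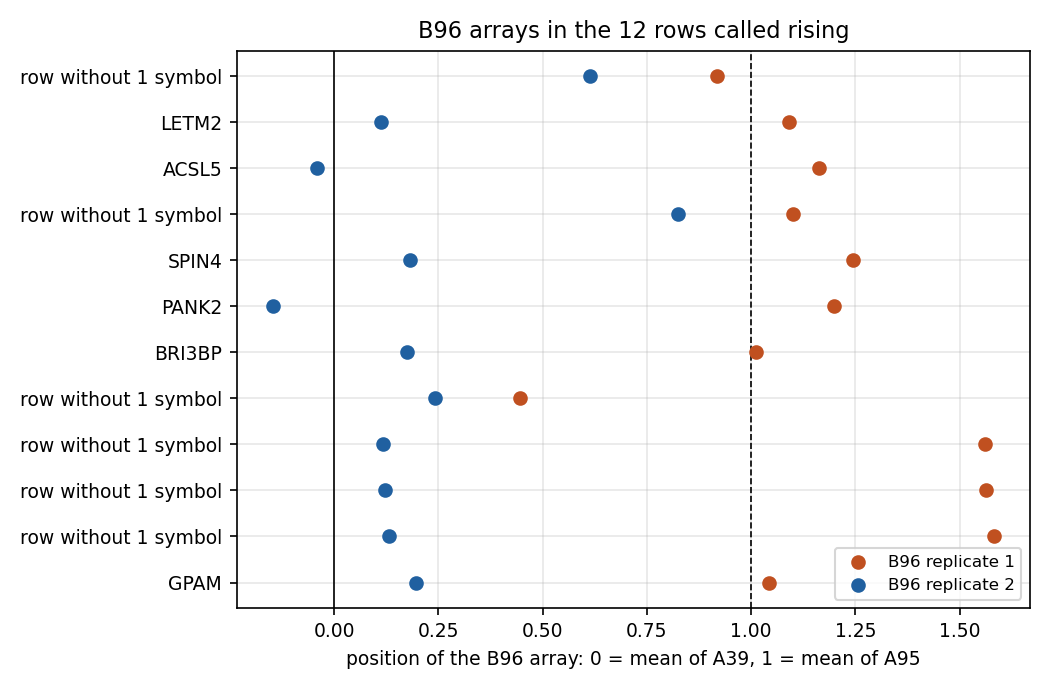
Position of B96 replicate 1 (orange) and replicate 2 (blue) in each of the 12 rows called rising over the arrays titled A (vertical axis), on a scale from the mean of A39 at 0 (solid line) to the mean of A95 at 1 (dashed line). Replicate 2 lies nearer to A39 in 10 rows, ACSL5 at -0.041 among them, and replicate 1 nearer to A95 in 11.

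A marker of cycling and one of arrest were read on the same arrays. MKI67, a marker of cycling cells, had its lowest value, 8.79, in A39 replicate 2, followed by A50 replicate 1 at 8.84. It stood at 10.88 and 10.55 in A95, but also at 10.74 and 10.28 in primary cells and 10.39 in B96 replicate 2, where all 3 genes were low. The values of CDKN2A, the gene of the growth inhibitor p16, were 6.54 and 7.84 in A95 and 7.79 and 8.87 in B96, against 9.25 and 9.59 in A39. Its lowest value, 6.33, was in A67 replicate 2, where all 3 genes were above their A58 values. The part of cycling and of p16 in the rise was not tested.

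Genes with the most similar pattern were found by the mean absolute difference between values centred on each gene's mean over 14 arrays. SPIN4 and LETM2 were each other's closest gene, 0.118 log2 apart on average, where SPIN4 itself deviated by 0.624 and LETM2 by 0.546 from their means. ACSL5, SPIN4 and LETM2 were chosen by their slopes over the arrays titled A, which are among the 14 arrays used here. Likeness among them is therefore not independent of the choice. BRI3BP came next for SPIN4 (0.134) and LETM2 (0.142), followed by SFMBT1 for SPIN4 (0.211) and PANK2 for LETM2 (0.184). ACSL5, with its wider range, was closest to PCDHB8 (0.342), PCDHB13 (0.427) and CMKLR1 (0.463), against its own deviation of 1.13. PCDHB8 and PCDHB13 are clustered protocadherins, whose near-identical copies can share probes, so their rows are uncertain. PCDHB8 read 9.38 in A95 replicate 2, 9.12 in B96 replicate 1 and 6.14 in B96 replicate 2, arrays on which its likeness to ACSL5 was measured. In likeness to ACSL5, SPIN4 had rank 5 (0.561) and LETM2 rank 13 (0.628). In the other direction ACSL5 had rank 4693 for SPIN4 and rank 14687 for LETM2, and its distance from LETM2 was above LETM2's own deviation. The values were centred but not scaled, so the wider range of ACSL5 lowers these ranks, and they do not compare the shape of the courses alone.

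Of the close relatives of the 3 genes, none was called in the passage test. ACSL1 had a slope of 0.035 ± 0.034 log2 per 10 passages (SE), ACSL4 of -0.061 ± 0.037 and ACSL6 of 0.010 ± 0.024, and all 3 encode acyl-CoA synthetases for long-chain fatty acids. Over the 14 arrays ACSL1 stayed between 9.02 and 9.73, ACSL4 between 10.58 and 11.32 and ACSL6 between 6.05 and 6.37. In the spindlin family SPIN1, SPIN2A and SPIN3 had slopes of 0.006 ± 0.023, 0.008 ± 0.045 and 0.002 ± 0.026, and SPINDOC, a binding partner of SPIN1, had -0.017 ± 0.024, for a median of 0.004 over these 4 genes. LETM1 had 0.065 ± 0.021 with an adjusted p of 0.162, and LETMD1 0.026 ± 0.025. ACSL3 and SPIN2B have no row with 1 symbol and are not reported.

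Lists around fatty acids were set beside ACSL5. Of 22 measured genes of fatty acid activation and uptake 0 were called rising and 0 falling, with a median slope of 0.015 against 0.012 over all rows. The largest slopes were 0.31 ± 0.10 for ACSS3, an acyl-CoA synthetase for short chains, and 0.10 ± 0.10 for the fatty acid binding protein FABP3, and the lowest were -0.27 ± 0.050 for ACSF2 (adjusted p = 0.056) and -0.18 ± 0.059 for ACSS2, which makes acetyl-CoA from acetate. Of 21 measured genes of mitochondrial fatty acid oxidation 0 rose and 1 fell, with a median of -0.062 and 17 slopes below 0. The one that fell was ACAA2, a thiolase that ends each round of mitochondrial oxidation, with -0.21 ± 0.030 (adjusted p = 0.039). At an unadjusted p under 0.05 stood 3 rising and 2 falling genes of the first list and 0 rising and 10 falling genes of the second, against 9.89% of all rows rising and 8.83% falling. ETFB, an electron carrier subunit, had -0.17 ± 0.045, while HADH and ACAD9 had 0.052 ± 0.035 and 0.037 ± 0.034, and none of these was called.

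Of 21 measured genes of glycerolipid synthesis and lipid droplets, 1 rose and 1 fell, and the median slope was 0. GPAM, the mitochondrial acyltransferase that puts the first acyl-CoA onto glycerol phosphate, rose by 0.21 ± 0.036 (adjusted p = 0.048). PLIN2, a coat protein of lipid droplets, fell by 0.24 ± 0.039 (adjusted p = 0.046). At an unadjusted p under 0.05 stood 3 in each direction. AGPAT5 had 0.20 ± 0.082 and GPAT3 -0.16 ± 0.16. GPAM read 8.34 and 8.55 in A95 against 7.54 and 7.22 in A39, and PLIN2 9.34 and 9.15 in A95 against 10.78 and 10.44 in A39. ACAA2 read 8.62 and 8.35 in A95 against 9.70 and 9.50 in A39. In B96 the pairs were 8.49 and 7.59 for GPAM, 9.53 and 10.60 for PLIN2, and 8.73 and 8.96 for ACAA2, against 8.19 and 7.76, 10.17 and 10.78, and 9.47 and 9.67 in primary cells, so both primary values of GPAM lay above both A39 values. The 3 calls were each lost with 8 of the 10 arrays left out in turn, and held without A67 replicate 2 or A95 replicate 1, the slopes staying at 0.192 to 0.258 for GPAM, -0.321 to -0.211 for PLIN2 and -0.227 to -0.181 for ACAA2 over all alternatives.

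**Figure D4:**
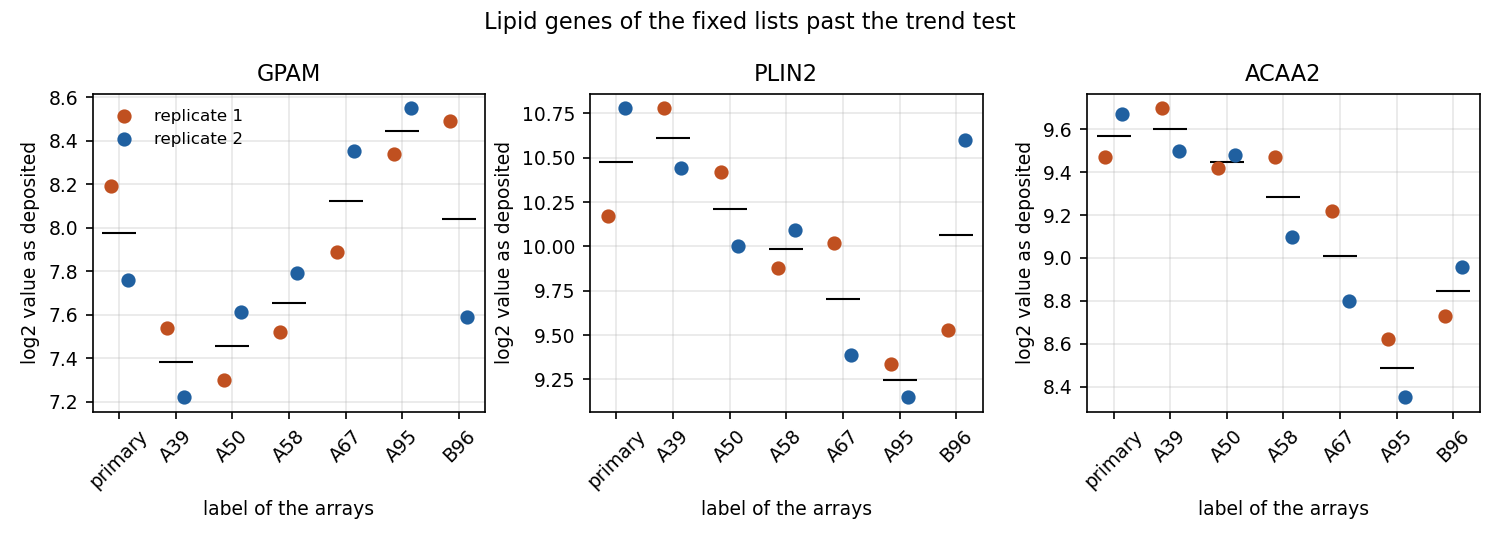
Log2 values as deposited (vertical axis) of GPAM, PLIN2 and ACAA2 by array label (horizontal axis), with 1 point per array, replicate 1 in orange and replicate 2 in blue, and a black bar for the mean of 2 arrays. GPAM climbs to 8.34 and 8.55 in A95, while PLIN2 and ACAA2 drop to 9.34 and 9.15 and to 8.62 and 8.35.

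Lists around SPIN4 and LETM2 held 0 calls in either direction. Among 27 writers, readers and erasers of methylation at lysine 4 of histone H3, the median slope was 0.025, with CXXC1 at 0.11 ± 0.040 and ASH2L, a core subunit of the methyltransferase complexes, at 0.10 ± 0.030. KDM5B, a demethylase of that mark, had -0.17 ± 0.051, and the methyltransferase gene KMT2C -0.072 ± 0.026. Among 18 measured genes of the LETM family and mitochondrial cation transport the median was 0.005. MCUB, an inhibitory subunit of the calcium uniporter, had 0.093 ± 0.071, and MICU3, a regulator of that channel, -0.18 ± 0.047 (adjusted p = 0.103), followed by VDAC2, a channel of the outer membrane, with -0.049 ± 0.028. The unadjusted p was under 0.05 for 4 rising and 3 falling genes of the first list and 1 rising and 1 falling gene of the second, beside the shares over all rows of 9.89% and 8.83%.

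The chromosomal surroundings were then examined, with RefSeq used for the order of genes. Of the 18 measured genes that lie nearest to the 3, with 3 on each side, 1 rose and 0 fell, and their slopes ran from -0.083 to 0.207. The one that rose was GPAM, the second measured gene before ACSL5 on chromosome 10, and TECTB, which lies between them, had a slope of 0.019 ± 0.032. On the far side of ACSL5, ZDHHC6 had 0.079 ± 0.040, VTI1A -0.064 ± 0.040 and TCF7L2 0.013 ± 0.026, and ADRA2A, beyond GPAM, had 0.018 ± 0.029. Around SPIN4 on chromosome X the slopes were 0.047 ± 0.032 for ZXDA, -0.019 ± 0.031 for ZXDB, 0.035 ± 0.027 for AMER1, 0.061 ± 0.027 for ASB12 and 0.106 ± 0.028 for MTMR8 (adjusted p = 0.106). All 6 neighbours of LETM2 on chromosome 8 had slopes below 0, from -0.083 to -0.005. DDHD2 had -0.078 ± 0.030, PLPP5 -0.064 ± 0.045, LINC03042 -0.056 ± 0.031 and TACC1 -0.005 ± 0.043. NSD3, a histone methyltransferase gene, had -0.028 ± 0.026 and FGFR1, a growth factor receptor gene, -0.083 ± 0.041, and none was called.

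**Figure D5:**
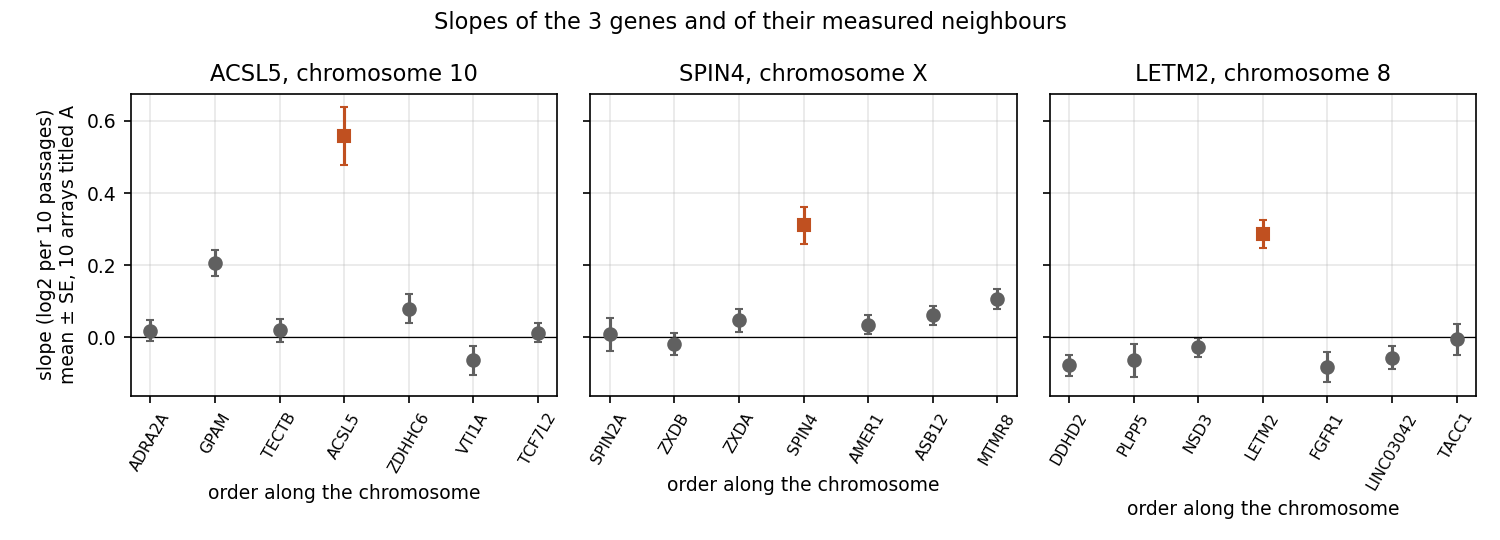
Slope in log2 per 10 passages over the 10 arrays titled A (vertical axis, bars are SE) for ACSL5, SPIN4 and LETM2 (orange squares) and for 3 measured genes on each side in chromosomal order (grey points, not to scale). GPAM at 0.207 stands above the other neighbours of ACSL5, and the neighbours of LETM2 lie below 0.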

How the data were processed

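The authors deposited 1 table of log2 values (28869 rows, 14 arrays, 2 decimals), whose log base is read from their range of 0 to 14.27. Array medians of 7.26 to 7.48 show a shared scale, while the method of normalization is not stated in the labels. No detection calls were analysed, so the number of arrays limits the precision. Rows were named from the platform annotation, updated by gene ID through RefSeq (19310 rows with 1 symbol, 19279 of them matched by gene ID, 1752 with several, 7807 with none). The row with the highest mean stood for its gene in lists and neighbours.

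Limma 3.58.1 in R 4.3.3 (lmFit, eBayes) was fitted to all rows without a filter, as a mean per group over 14 arrays for B96 versus primary and as a slope per 10 passages over the 10 arrays titled A. P-values are two-sided, with Benjamini-Hochberg adjustment over every row and a threshold of 0.05. The fits were tested on simulated data. Promoter windows were counted in Python 3.11.15.

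The members and gene lists were chosen with earlier results of these data known. Named were the members, their relatives, the 2 largest and 2 lowest slopes per list, and 3 neighbours on each side. The 3 most similar genes, the genes next to the threshold, TERT, MKI67 and CDKN2A were named too. PANK2 was named beyond that rule, like the markers COL5A1, S100A4, TEK and CD68, chosen after their values were seen. The alternatives were each array left out, a replicate block, other scalings, a filter on dim rows, 1 row per gene, a robust prior, array weights, fewer arrays or passages, ranks and a random block.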

Additional observations from a re-analysis of the deposited data

How the results depend on the processing

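The slopes of ACSL5, SPIN4 and LETM2 stayed above 0 in all 20 alternatives. The genes were chosen by these slopes, so this is a description and no support for the rise. With 1 array left out the slopes ran from 0.49 to 0.66, from 0.28 to 0.38 and from 0.25 to 0.35. They were highest without A95 replicate 1 and lowest without A95 replicate 2. Array weights gave 0.45, 0.26 and 0.23, and passages 39 to 67 gave 0.68, 0.43 and 0.36. For B96 versus primary the differences with 1 array left out ran from 0.095 to 3.77, from 0.20 to 1.91 and from 0.020 to 1.54, the ends being set by the B96 arrays, and centring on array medians lowered each by 0.125. That contrast had 0 to 6 rows called higher with 1 array left out, 1 with quantile normalization, and 0 called lower in all alternatives. The number of rows called rising with passage, 12, was fragile. It was 0 to 178 with 1 array left out (178 without A95 replicate 1, 18 without A67 replicate 2, 1 without A50 replicate 1 and 0 without any other array), 25 centred on medians, 41 with the filter on dim rows, 22 with 1 row per gene, 924 with array weights, 221 with a random block for passage, 106 with ranks and 0 on passages 39 to 67. For falling rows, 69, the counts were 0 to 393 with 1 array left out, 145 with quantile normalization, 404 centred, 230 filtered, 152 with 1 row per gene, 114 with the robust prior, 1247 with array weights, 508 with the random block, 383 on ranks and 0 on passages 39 to 67. The cause of these moves was not tested. Under the filter and with 1 row per gene, fewer rows entered the fit.

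With the replicate number as a block, B96 versus primary had adjusted p of 0.760 for all 3 genes and 0 rows called, and the trend called 14 rising and 60 falling rows, GPAM being lost at an adjusted p of 0.0505. The numbers are not known to pair the samples. The deviations of replicate 1 from the group means correlated from -0.529 to 0.196 over the 21 pairs of groups, and 4 pairs were over 0.1. GPAM was also lost with quantile normalization (adjusted p = 0.0502), centred on medians (0.0533) and on passages 39 to 67 (0.162), where ACAA2 (0.167) and PLIN2 (0.125) were lost as well.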
